A study of Apis mellifera with 15 samples.

Results

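Hbg3, AGLU2 and Hbg2 are alpha-glucosidase genes of the honey bee, Apis mellifera, and their transcripts were followed in brain libraries of bees given the insecticide thiacloprid. They were chosen by name from the gene table, where they were 3 of 12112 genes, and each had 1 transcript among the 28276 in the transcript tables, so no test of transcript choice could be made. The study held 15 libraries in 3 groups of 5, each library made from a separate pool of 5 dissected brains. All bees were adult worker foragers from a site without pollution, kept in bottles in the laboratory and fed sucrose solution for 72 h. The control bees received the solvent, and the other groups received 25 or 250 ng of thiacloprid per bee. Thiacloprid is a neonicotinoid, a class of insecticide that acts on nicotinic acetylcholine receptors. The labels give no strain or age of the bees, and a pool hides the differences between its animals.

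Alpha-glucosidases release glucose from the ends of sugars such as sucrose and maltose. The honey bee makes several of them. HBG-III, the product of Hbg3, is secreted by the hypopharyngeal glands, paired glands in the head that lie close to the brain, and foragers add it to nectar, where it splits sucrose into glucose and fructose during honey ripening. HBG-II and HBG-I are the related enzymes described from the ventriculus, the bee's midgut, with HBG-II also found in the haemolymph. The reference gene table lists Hbg1 as a synonym of AGLU2 and AGLU4 as a synonym of Hbg2.

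Hbg3 (gene ID 406131) lies on chromosome 6 from 4602439 to 4613520 in assembly Amel_HAv3.1, on the plus strand, with 8 exons and a transcript of 1828 nt. AGLU2 (gene ID 409889) follows it on the same chromosome and strand from 4618778 to 4626779, also with 8 exons and with a transcript of 1767 nt. The gap between these neighbours was 5257 bp, and no other annotated gene started in it. Hbg2 (gene ID 411257) lies apart from them on chromosome 8, from 5359323 to 5361065 on the plus strand, as a single exon of 1743 nt. Each of the 3 genes sits inside the span of a longer gene on the minus strand. LOC724389 (chromosome 6, 4500753 to 4655231) spans both Hbg3 and AGLU2, with a mean of 17.0 ± 4.40 CPM (CPM are counts scaled to library size with TMM factors; SD, n = 15). LOC725803 (chromosome 8, 5311778 to 5511371) spans Hbg2, with a mean of 27.6 ± 6.25 CPM. The library kit marked strand, but no source used here says whether counting used it, so reads of a member and of the gene that spans it may not be separate. By counts, LOC725803 lay above Hbg2 (a mean of 2.70 CPM), while LOC724389 lay below AGLU2 (93.3 CPM) and far below Hbg3.

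Total counts per library were 6834898 to 11500655 in 14 libraries. The remaining library, replicate 1 at 250 ng/bee, held 29208991 counts and was the only one whose label starts with 20191023 rather than 20190809, a string that no source used here explains. Fold changes and ratios of the 3 genes at 250 ng/bee against the control are given with and without this library. All 6 neuronal marker genes were detected in every group, and their summed level ran from 876 to 1381 CPM over the libraries. Markers of other tissues were present as well. The 9 major royal jelly protein genes (Mrjp1 to Mrjp9), read here as markers of the hypopharyngeal gland, summed to 26103 to 242076 CPM. Among them Mrjp1 ran from 17909 to 168031 CPM, Mrjp8 only from 7.82 to 19.5 and Mrjp9 from 6.46 to 52.2. The 5 muscle genes summed to 71.3 to 551 CPM and 4 eye genes to 2222 to 9252 CPM. Of 6 fat body and haemolymph genes, Hex70c was at 0 in all libraries and the sum ran from 2966 to 4885 CPM.

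The levels of the 3 genes lay far apart. Per length, Hbg3 had a mean of 18736 ± 10796 FPKM (fragments per unit of transcript length and of sequencing depth; SD, n = 15), AGLU2 48.7 ± 9.27 FPKM and Hbg2 1.44 ± 1.02 FPKM. By mean FPKM these were ranks 4, 1609 and 8560 of 12112 genes. Within a library, the FPKM of Hbg3 was 107 to 776 times that of AGLU2, with a median of 387. The FPKM of AGLU2 was 12.8 to 194 times that of Hbg2, with a median of 42.0. The order Hbg3, AGLU2, Hbg2 therefore held in each of the 15 libraries, and the ranges of the 3 genes did not overlap.

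Hbg3 alone took 1.12% to 7.99% of all counts in a library, with a median of 3.26%. It was the second most abundant gene in 3 libraries and never the first, a place held by Mrjp1 in 6 of 15. At the other end, Hbg2 was read from 6 to 126 counts per library. Counting error by itself was then 8.91% to 40.8% of the Hbg2 value, against 2.26% to 4.21% for AGLU2 and 0.102% to 0.297% for Hbg3. These figures cover counting error only.

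Hbg3 in the 5 control pools was 9644, 77539, 45791, 52934 and 35320 CPM, in the order of replicates 1 to 5. At 25 ng/bee it was 31075, 22133, 88406, 47766 and 19160 CPM. At 250 ng/bee it was 42227, 18741, 63145, 8815 and 16068 CPM. The lowest pools of the control and the 250 ng/bee group were close to each other, the highest pool belonged to the 25 ng/bee group, and the 3 groups overlapped. The highest pool was 10.03 times the lowest. In bulk tissue such as these pools, more cells that make Hbg3 and more Hbg3 RNA per cell cannot be told apart.

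AGLU2 in the control pools was 83.6, 117, 143, 105 and 83.4 CPM. At 25 ng/bee it was 77.6, 79.9, 139, 93.3 and 64.7 CPM. At 250 ng/bee it was 87.0, 88.5, 78.7, 79.8 and 78.8 CPM. All 5 pools at 250 ng/bee lay below the control mean and 3 of them below every control pool, while the other 2 lay inside the control range. The pools at 250 ng/bee were close together on this scale, but that closeness depended on the scaling. The coefficient of variation of AGLU2 in the control, 25 and 250 ng/bee groups was 23.6%, 31.7% and 5.78% in CPM and 10.4%, 26.4% and 14.95% in FPKM.

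Hbg2 in the control pools was 0.450, 1.62, 3.402, 2.87 and 1.73 CPM. At 25 ng/bee it was 3.79, 0.815, 0.769, 3.20 and 2.98 CPM. At 250 ng/bee it was 5.58, 4.52, 1.74, 6.16 and 0.915 CPM. Of the pools at 250 ng/bee, 3 lay above every control pool and 2 lay within the control range, so these groups overlapped too. The pools below 1 CPM came from all 3 groups.

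**Figure D1:**
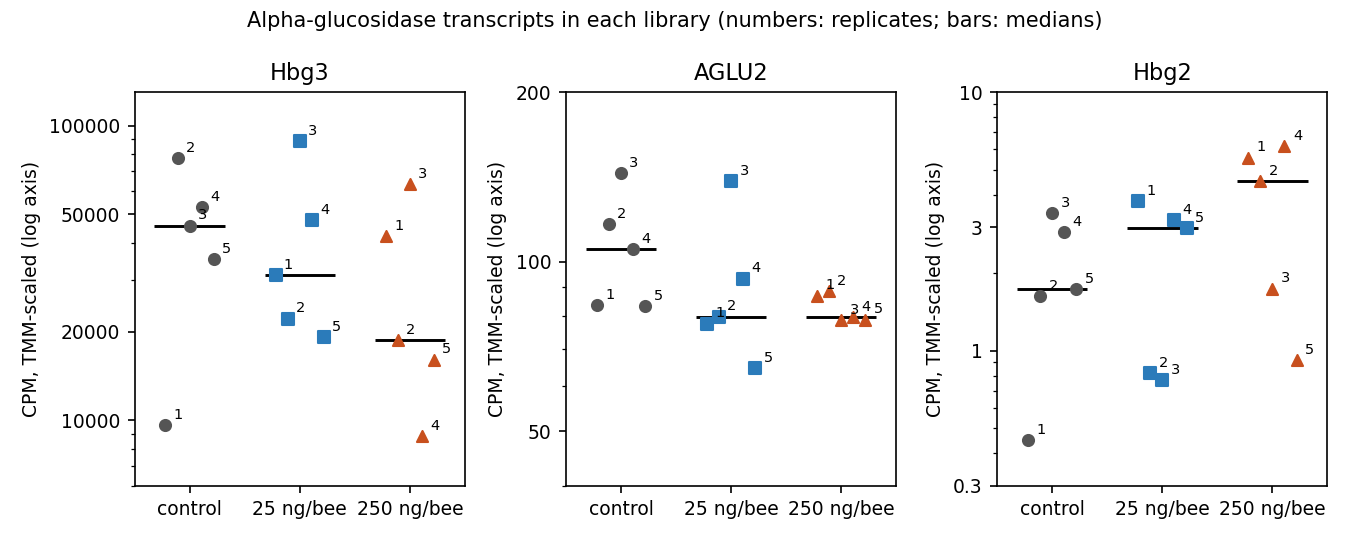
TMM-scaled CPM of Hbg3, AGLU2 and Hbg2 in each of the 15 libraries on log axes, with each point numbered by replicate and a bar at the group's median. The groups overlap for all 3 genes, and Hbg3 and Hbg2 span 10.03-fold and 13.7-fold against 2.21-fold for AGLU2.

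Pools of one group differed more in Hbg3 and Hbg2 than in most tested genes. The within-group SD of log2(CPM + 1) was 1.07 for Hbg3, 0.73 for Hbg2 and 0.31 for AGLU2, beside a median of 0.24 over the 9560 genes that passed the low-count filter. Of these genes, 99.2% had a lower SD than Hbg3, 97.6% a lower one than Hbg2 and 67.4% a lower one than AGLU2. Among genes within 2-fold of its own level, Hbg2 exceeded the SD of 94.3% of 1042 and AGLU2 that of 85.6% of 3128. Only 4 genes, Hbg3 itself among them, lay within 2-fold of the level of Hbg3, with a median SD of 0.96 against its 1.07. Of these, 75% had a lower SD than Hbg3, so it exceeded every other gene of that set. Each of these level sets counts the member itself. The biological coefficient of variation fitted by edgeR was 0.607 for Hbg2, 0.599 for Hbg3 and 0.207 for AGLU2, beside 0.219 for all genes together. The trend that edgeR fitted over gene level gave 0.382 at the level of Hbg2, 0.282 at that of Hbg3 and 0.177 at that of AGLU2. All 3 members thus lay above the value for their level.

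The first comparison asked whether the lower dose was accompanied by another level of these enzymes' transcripts. At 25 ng/bee none of the 3 genes passed the test. Hbg3 had a mean of 41708 ± 28381 CPM against 44245 ± 24816 in the control (SD, n = 5 each), AGLU2 90.9 ± 28.8 against 106 ± 25.1 and Hbg2 2.31 ± 1.42 against 2.01 ± 1.16. The log2 fold change was -0.09 ± 0.59 (SE) for Hbg3, with a 95% interval of -1.34 to 1.17. It was -0.23 ± 0.18 for AGLU2, from -0.61 to 0.16, and 0.21 ± 0.59 for Hbg2, from -1.04 to 1.46. The adjusted p was 0.998 for each in edgeR's quasi-likelihood test with Benjamini-Hochberg adjustment over 9560 genes. The 0 of 3 called stood beside 0% of all tested genes, and the 0 of 3 at an unadjusted p under 0.05 beside 2.46% (235 genes); DESeq2 and limma-voom with sample weights called 0 genes as well. In 0 of 3 genes were the groups separate, beside 0.921% of all genes. The direction of Hbg3 and Hbg2 depended on single pools. The log2 fold change of Hbg3 was 0.22 without control replicate 2 and 0.00 to 0.10 without replicate 1, 2 or 5 of the treated group, and that of Hbg2 was -0.06 without control replicate 1 and -0.04 without replicate 1 of the treated group. The fat body and haemolymph markers summed to 3139 to 3584 CPM at this dose and to 3529 to 4885 CPM in the control. Of 5 tested genes 4 were lower, beside 52.2% of all genes, with 0 called and a median of -0.30. Tsf1 (-0.33), with a mean of 3614 CPM over all libraries, made up most of these sums, and Vg was higher (0.09). Of the other markers, 5 of 6 neuronal, 1 of 1 glial and 7 of 9 royal jelly protein genes were lower. Muscle genes were lower in 0 of 4 tested and eye genes in 2 of 4, and 0 were called. The part of these tissues in the values of the 3 genes was not tested.

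The second comparison set the higher dose against the control. At 250 ng/bee the mean of Hbg3 was 29799 ± 22458 CPM, that of AGLU2 82.6 ± 4.77 CPM and that of Hbg2 3.78 ± 2.34 CPM (SD, n = 5). Hbg3 lay below the control mean in 4 of 5 pools and AGLU2 in 5 of 5, while Hbg2 lay above it in 3 of 5. None of these differences passed the test in edgeR. Hbg3 had a log2 fold change of -0.57 ± 0.60 (SE), with a 95% interval of -1.83 to 0.69 and an adjusted p of 0.735. AGLU2 had -0.36 ± 0.18, from -0.75 to 0.02, with an unadjusted p of 0.0615 and an adjusted p of 0.441 in the same edgeR fit. Hbg2 had 0.95 ± 0.57, from -0.26 to 2.16, with an unadjusted p of 0.115 and an adjusted p of 0.525 in edgeR. The Hbg2 interval included 0 as well as values above 2 on the log2 scale.

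In this comparison edgeR called 0 of 3 members, beside 0% of 9560 genes. At an unadjusted p under 0.05 it was 0 of 3 members, beside 12% of all genes (1144 genes). DESeq2 called 54 genes and limma-voom with sample weights 390, with none of the 3 among them. For Hbg2 DESeq2 gave no adjusted p in this comparison, so it could not have called that gene. The groups were separate in 0 of 3 members and in 2.75% of all genes. Without replicate 1 at 250 ng/bee, which left the 14 libraries of the 20190809 prefix, edgeR called 248 genes, again with no member among them. The log2 fold changes of the members were then -0.71 ± 0.64 for Hbg3, -0.36 ± 0.19 for AGLU2 and 0.80 ± 0.62 for Hbg2, with adjusted p of 0.558, 0.306 and 0.487 in edgeR.

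Leaving out each library in turn moved the 3 genes unequally. For AGLU2 the log2 fold change at 250 ng/bee stayed between -0.44 and -0.21, the last without control replicate 3. For Hbg2 it lay between 0.68, without control replicate 1, and 1.24, without control replicate 3. For Hbg3 it lay between -1.04, without replicate 3 at 250 ng/bee, and -0.25, without control replicate 2. The signs at this dose were kept in all 15 fits. Of these fits, 5 left out a library of the lower dose, which is outside this comparison, and could hardly change a sign.

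**Figure D2:**
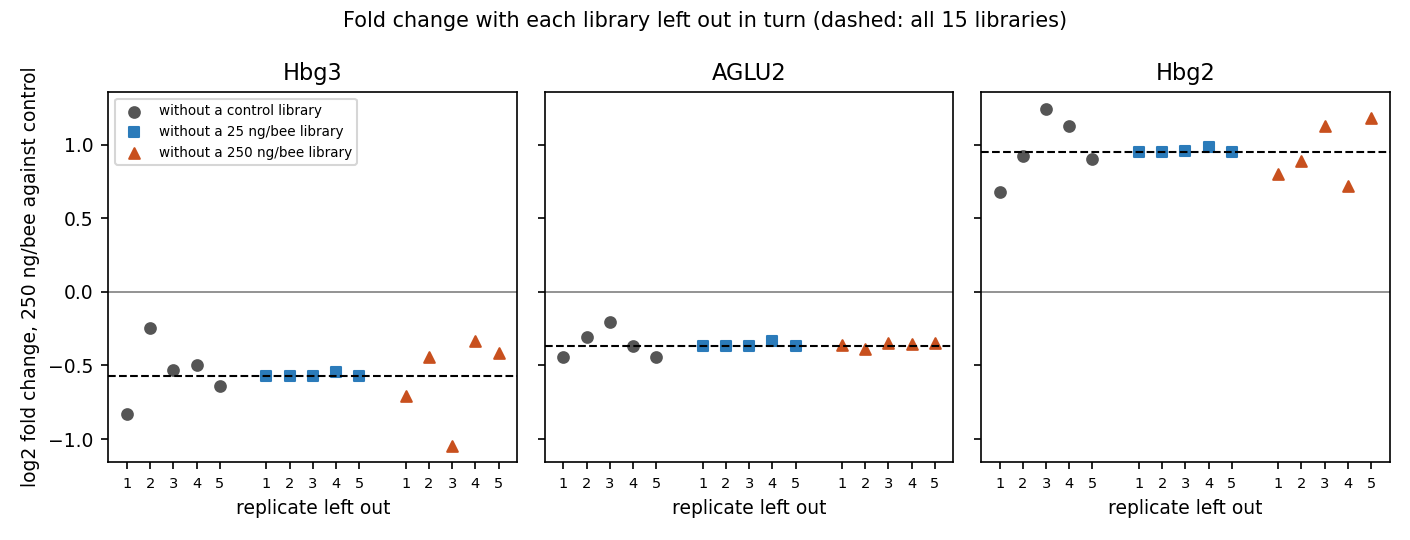
Log2 fold change at 250 ng/bee against the control from edgeR with each library left out in turn, by the replicate left out (horizontal axis) and its group (colour and shape); the dashed line is the value with all 15 libraries. The values of Hbg3 run from -1.04 to -0.25, those of AGLU2 from -0.44 to -0.21 and those of Hbg2 from 0.68 to 1.24.

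Marker genes of brain and other tissues were read beside these values, and none was called by edgeR at this dose. The 6 neuronal markers summed to 876 to 1059 CPM at 250 ng/bee and to 1102 to 1381 CPM in the control. On this TMM scale their sums did not overlap, while single genes had separate groups in 2.75% of 9560. By total counts the sums overlap, since the TMM factor was 1.27 for replicate 4 at 250 ng/bee and 0.802 for control replicate 3. In edgeR 6 of 6 were lower, with -0.24 as their median log2 fold change. Over all tested genes 55.6% were lower and the median was -0.03. The glial marker Eaat-2 had a log2 fold change of -0.09, with 180 to 391 CPM at 250 ng/bee and 245 to 361 CPM in the control. The 4 tested muscle markers were all higher, with a median of 0.63. Fat body and haemolymph markers were higher in 3 of 5 tested (median 0.07) and eye markers in 2 of 4 (median -0.08). The royal jelly protein genes, read as markers of the gland that makes Hbg3, summed to 30071 to 242076 CPM at 250 ng/bee and to 26103 to 236215 CPM in the control. The part of these tissues in the values of Hbg3, AGLU2 and Hbg2 was not tested.

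The doses were also set against each other. From 25 to 250 ng/bee the log2 fold change was -0.49 ± 0.60 (SE) for Hbg3, -0.14 ± 0.18 for AGLU2 and 0.74 ± 0.57 for Hbg2, with adjusted p of 0.979, 0.984 and 0.960 in edgeR. The 0 of 3 called stood beside 0% of all genes, the 0 of 3 at an unadjusted p under 0.05 beside 4.99% (477 genes), and the 0 of 3 with separate groups beside 0.711%; DESeq2 and limma-voom with sample weights called 0 genes. Without replicate 3 at 25 ng/bee, the pool with the most Hbg3, the value of Hbg3 was -0.01 and that of AGLU2 0.07. Without replicate 1 at 250 ng/bee the values were -0.63 for Hbg3, -0.14 for AGLU2 and 0.58 for Hbg2, with adjusted p of 0.804, 0.873 and 0.806 in edgeR. A joint test of any difference among the 3 groups gave adjusted p of 0.948 for Hbg3, 0.794 for AGLU2 and 0.847 for Hbg2 in edgeR. It called 0% of the genes, with 6.75% (645 genes) at an unadjusted p under 0.05, and DESeq2 called 17 and limma-voom 0.

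**Figure D3:**
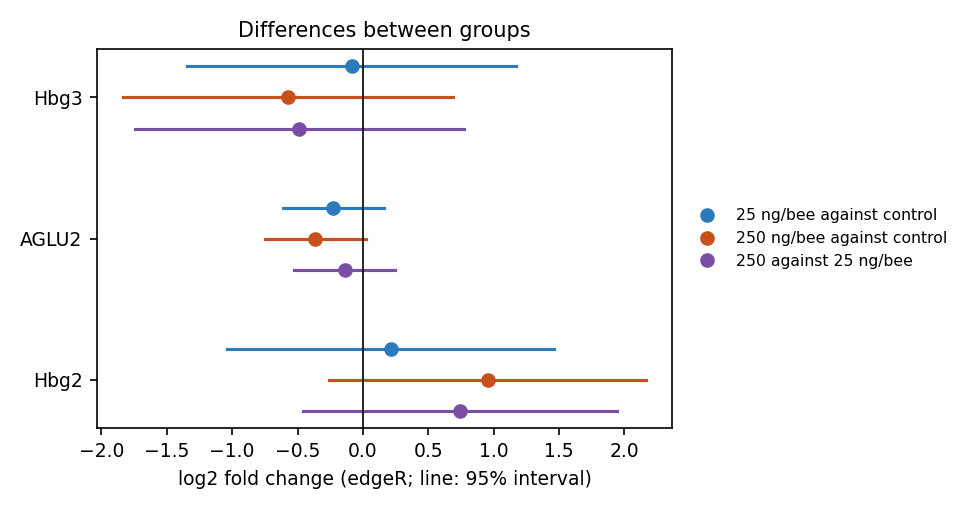
Log2 fold changes of Hbg3, AGLU2 and Hbg2 from edgeR (points) with 95% intervals (lines) for the 3 comparisons, marked by colour. Every interval includes 0, and those of AGLU2 are the narrowest.

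The transcript tables gave values of the same sign. Each member has 1 transcript and its gene count follows from that transcript's coverage, so these values are no separate measurement. They show only the effect of another scaling and test. In limma on log2(FPKM + 0.1), which understates changes of low transcripts, the difference at 25 ng/bee was -0.05 ± 0.56 (SE) for Hbg3, -0.25 ± 0.16 for AGLU2 and 0.17 ± 0.67 for Hbg2. At 250 ng/bee it was -0.60 ± 0.56, -0.30 ± 0.16 and 0.82 ± 0.67, with an adjusted p of 0.993 for each in limma. Of 17238 transcripts 0% were called at either dose, while 3.73% and 4.39% had an unadjusted p under 0.05, with 0 of the 3 members among them. Between the doses the differences were -0.56, -0.05 and 0.65, with 0% called and 3.88% at an unadjusted p under 0.05. Without replicate 1 at 250 ng/bee the differences from the control at that dose were -0.72, -0.23 and 0.69, and those between the doses -0.68, 0.02 and 0.52, so AGLU2 changed sign between the doses.

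Because each library measures all 3 genes, their ratios do not depend on how the library was scaled beyond the pseudocount of 1 CPM. The log2 ratio of Hbg2 to AGLU2 was -5.22 ± 0.44 in the control and -4.30 ± 0.79 at 250 ng/bee (SD, n = 5 each), a difference of 0.92 with p = 0.0635 in a two-sided exact permutation test and 0.571 after adjustment over 9 ratio comparisons. The ratio of Hbg2 to Hbg3 differed by 1.23 at that dose (exact permutation p = 0.167, adjusted 0.714). The ratio of Hbg3 to AGLU2 differed by -0.30 (exact permutation p = 0.667, adjusted 0.810). Without replicate 1 at 250 ng/bee these differences were 0.78 for Hbg2 to AGLU2, 1.28 for Hbg2 to Hbg3 and -0.49 for Hbg3 to AGLU2, with adjusted p of 0.679, 0.679 and 0.684 in the same exact permutation test. The other 6 comparisons gave exact permutation p of 0.262 to 0.810. The smallest p that 5 against 5 pools allow in this test is 0.00794.

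Across the 15 pools, Hbg3 went with the royal jelly protein genes and with AGLU2, and Hbg2 went with neither. These relations of Hbg3 were not its closest, since 136 of the 9559 other genes had r over 0.7 with it and 65 had r under -0.7. Hbg3 and the mean log2(CPM + 1) of Mrjp1 to Mrjp9 had a Pearson r of 0.68 and a Spearman rho of 0.64 (permutation p = 0.00547 for r, adjusted over 6 relations 0.0328; adjusted p for rho 0.0795). Without the 2 libraries farthest from the median of Hbg3, r was 0.39 (permutation p = 0.191), so the relation rested on those libraries. Within the 14 libraries of the 20190809 prefix r was 0.70 (adjusted permutation p = 0.0358), and after subtracting the group means it was 0.69 (adjusted permutation p = 0.0317). The adjusted p was above 0.05 without control replicate 1 or 2 or without replicate 2 or 4 at 250 ng/bee, with r of 0.57 to 0.67 and adjusted permutation p up to 0.0986. With CPM by total counts, an alternative chosen after the data were seen, r was 0.51 (adjusted permutation p = 0.303).

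Hbg3 and AGLU2, the neighbours on chromosome 6, had r = 0.62 and rho = 0.54 (permutation p = 0.0137 for r, adjusted 0.0411; adjusted p for rho 0.119). Without the 2 farthest libraries r was 0.68 (permutation p = 0.0105), and within the 14 libraries it was 0.63 (adjusted permutation p = 0.0463). The relation depended on the scaling, since r was 0.15 (adjusted permutation p = 0.704) with CPM by total counts. It also passed out of the threshold in 10 of the 15 sets that left out 1 library, namely control replicates 1, 2 and 4, replicates 2 to 5 at 25 ng/bee and replicates 2, 4 and 5 at 250 ng/bee, with r of 0.52 to 0.64 and adjusted permutation p up to 0.156. AGLU2 and the royal jelly protein genes had r = 0.41 and rho = 0.32 (adjusted permutation p = 0.269). Hbg2 had r = -0.06 and rho = -0.18 with Hbg3, r = -0.10 and rho = -0.10 with AGLU2, and r = 0.10 and rho = 0.09 with the royal jelly protein genes (adjusted permutation p = 0.824 for r in each). Over the 14 libraries these 3 were -0.12, -0.09 and -0.07.

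**Figure D4:**
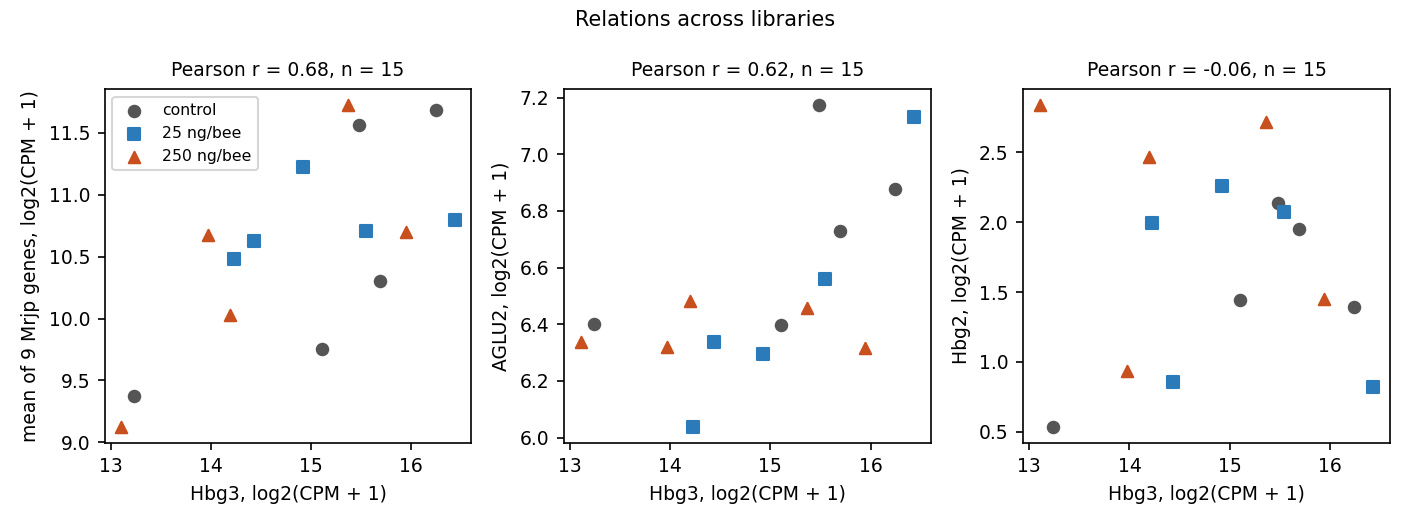
Each point is 1 of 15 libraries, with Hbg3 as log2(CPM + 1) on the horizontal axis and, from left to right, the mean of the 9 royal jelly protein genes, AGLU2 and Hbg2 as log2(CPM + 1) on the vertical axis; colours and shapes mark the groups. Higher Hbg3 goes with higher values in the left and middle panels (r = 0.68 and 0.62) and not in the right one (r = -0.06).

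The genes on the opposite strand were set beside the members in relations chosen after the transcript tables were seen. LOC724389 had r = 0.52 and rho = 0.52 with Hbg3 (permutation p = 0.0468, adjusted over 3 relations 0.0703) and r = 0.59 and rho = 0.43 with AGLU2 (permutation p = 0.0187, adjusted 0.0562). Without the 2 farthest libraries r was 0.54 and 0.45. LOC725803 had r = -0.30 and rho = -0.24 with Hbg2 (adjusted permutation p = 0.269), and r = -0.54 without the 2 farthest. At 250 ng/bee the log2 fold change was -0.33 for LOC724389 and -0.31 for LOC725803 in edgeR, and the sign of LOC725803 was opposite to that of Hbg2.

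The genes most like each member were ranked by Pearson r of log2(CPM + 1) over the 15 libraries, as a description that shares library, depth and scaling. For Hbg3 the 5 highest were LOC726134 (0.92), LOC724642 (0.90), LOC406093 (0.88), LOC406114 (0.88) and LOC726737 (0.87). After subtracting group means these r were 0.87 to 0.92, and with CPM by total counts 0.81 to 0.89, and within the 14 libraries of the 20190809 prefix 0.88 to 0.92. LOC406093 had a mean of 74444 CPM, beside 70668 CPM for Mrjp1, and LOC406114 had a mean of 4826 CPM with 227 in the lowest pool and 10653 in the highest. A total of 21 of the 9559 other genes had r over 0.8 with Hbg3 and 5 had r under -0.8. Mrjp1 ranked only 214 among the 9559.

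For AGLU2 the 5 genes were LOC413141 (0.85), LOC725207 (0.84), LOC550806 (0.83), LOC411366 (0.81) and LOC726431 (0.81), and 7 genes had r over 0.8. With CPM by total counts their r with AGLU2 was 0.59 to 0.76, and within the 14 libraries 0.83 to 0.88. For Hbg2 they were LOC410554 (0.76), LOC100578472 (0.76), LOC551986 (0.73), LOC113219428 (0.73), annotated as a lncRNA, and Obp3 (0.73), an odorant-binding protein gene. With CPM by total counts these r were 0.51 to 0.74, the lowest for LOC100578472 (0.51) and LOC551986 (0.53), and within the 14 libraries 0.68 to 0.74. No gene had r over 0.8 with Hbg2, the member with the highest counting error. The lists of the 3 members shared no gene.

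Few other genes of sugar handling could be set beside the members, because lists were matched by symbol and synonym and most genes of the table carry only a locus number. Of 29 names searched for sugar digestion and transport, 4 genes matched, the 3 members and Tret1, a trehalose transporter. Tret1 had a log2 fold change of -0.09 ± 0.12 (SE) at 25 ng/bee and of -0.34 ± 0.12 at 250 ng/bee (unadjusted p = 0.0110, adjusted p = 0.329 in edgeR). Since 3 of its 4 genes are the members, the list adds only Tret1 to the values above. Its median, which largely restates the members, was -0.09 and -0.35 at the 2 doses. At each dose 1 of 4 was higher and 3 of 4 lower, beside 52.2% and 55.6% of all tested genes lower. The median of all 9560 genes was -0.01 and -0.03. Of the glycolysis list, Tpi, which encodes triosephosphate isomerase, had 0.03 and 0.21, and Gpdh, which encodes a glycerol-3-phosphate dehydrogenase, -0.05 and -0.10.

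The list drawn up as gland products held 10 matched genes, Mrjp1 to Mrjp9 and Y-h. At 25 ng/bee 3 were higher and 7 lower (median log2 fold change -0.06), and at 250 ng/bee again 3 were higher and 7 lower (median -0.22). Of all tested genes, 52.2% and 55.6% were lower at these doses. From 25 to 250 ng/bee 5 were higher and 5 lower (median -0.11), beside 55.9% of all tested genes lower. None was called by edgeR at either dose. Mrjp4 had 0.14 and 0.37 at the 2 doses, Mrjp9 0.15 and -0.40, Mrjp2 -0.36 at 25 ng/bee and Y-h -0.48 at 250 ng/bee. Mrjp1 had -0.17 ± 0.59 (SE) at 25 ng/bee. Of the signals of sugar intake 4 genes matched and 0 were called. NPF, a neuropeptide of feeding, had -0.60 and -0.46, InR-2, an insulin receptor, 0.29 and 0.18, Akhr, the adipokinetic hormone receptor, 0.35 and -0.43, and ILP-2, an insulin-like peptide, -0.12 and 0.01.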

How the data were processed

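Poly-A RNA of pooled brains was sequenced with a stranded kit, per the labels' protocols, and the sample titles gave each library's group and replicate number. The tools in the submitters' processing notes are HISAT2 2.1.0, StringTie 2.0.2, DESeq2 1.22.2, Trimmomatic 0.39 and SAMtools 1.7. No source used here gives their roles, the build, or whether counting was by strand. The gene table deposited by the authors holds estimated counts, and each equalled the deposited coverage of the gene's transcripts times their length over 75 bases per read, to within 1 count, in 100% of genes. The transcript tables hold FPKM and coverage, per the file headers. Start and end matched assembly Amel_HAv3.1 for 12069 of 12112 genes (99.6%), so its annotation was used for names and positions.

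Estimated counts were rounded and tested with edgeR 4.0.16 in R 4.3.3 (quasi-likelihood F test, two-sided), with TMM scaling (factors 0.773 to 1.27), filterByExpr on the groups and a single fit of the 15 libraries on group alone, which tested 9560 genes. Adjusted p under 0.05 was the threshold. FPKM values were tested as log2(FPKM + 0.1) with limma 3.58.1 for 17238 transcripts with a mean FPKM of at least 0.5. Correlations used log2(CPM + 1) and 100000 permutations, with p adjusted by Benjamini-Hochberg over 6 relations, or 3 for those added. The genes named were the members, for each the 5 genes with the highest correlation, and from each list those with the lowest unadjusted p on each side. The members and lists were chosen with earlier results of these data known. LOC406114 was left out of 2 lists because the reference gives it no name, and Tk out of the eye markers because it matched by another gene's synonym. Alternatives were DESeq2 1.42.0 and its size factors, limma-voom with sample weights, no low-count filter, a replicate block, scaling without the members and Mrjp genes, total-count scaling, other FPKM pseudocounts and filters, and each library left out in turn. The labels do not say whether replicate numbers pair the libraries, so the main fit had no block.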

Additional observations from a re-analysis of the deposited data

How the results depend on the processing

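For the 9 fold changes of the members, 198 alternative values were computed. Of these, 191 kept their sign, 7 reversed and 0 passed the threshold, with a lowest adjusted p of 0.157 in any tool. DESeq2 gave no adjusted p for Hbg2 at 250 ng/bee. For each fold change, and each transcript difference below, 5 values left out a library of the group outside the comparison. Those values could hardly change sign, so the counts of kept signs overstate the stability. The fold changes moved most, apart from left-out libraries, with limma-voom, which gave Hbg3 -0.96 at 250 and -0.26 at 25 ng/bee and AGLU2 -0.38 and -0.37. For AGLU2 the unadjusted p in limma-voom was 0.0382 and 0.0405. In the same fit 2650 of 9560 genes at 250 ng/bee and 588 at 25 ng/bee had an unadjusted p under 0.05. The 7 reversals came from leaving out 1 library, where Hbg3 at 25 ng/bee ran from -0.56 to 0.22, Hbg2 at 25 ng/bee from -0.0605 to 0.48 and AGLU2 between the doses from -0.24 to 0.0660. For the 9 transcript differences, 151 of 162 kept their sign, and with 1 library left out the 11 reversals lay in Hbg3 at 25 ng/bee (-0.45 to 0.17), Hbg2 at 25 ng/bee (-0.18 to 0.46) and AGLU2 between the doses (-0.14 to 0.0898). Of the ratios, Hbg2 to Hbg3 at 25 ng/bee ran from -0.17 to 0.67, Hbg3 to AGLU2 at 25 ng/bee from -0.20 to 0.44 and at 250 ng/bee from -0.70 to 0.0395 with 1 library left out. The cause was not tested.

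The relation of Hbg3 with AGLU2 had r = 0.60 with DESeq2 size factors (adjusted permutation p = 0.0526) and 0.15 with total counts, and that of Hbg3 with the Mrjp genes 0.51 with total counts. With 1 library left out these ran from 0.52 to 0.705 and from 0.57 to 0.73. The weak relations changed sign in places: Hbg2 with Hbg3 was 0.0495 and Hbg2 with AGLU2 0.0405 after subtracting group means, Hbg2 with the Mrjp genes was -0.0658 in the 14 libraries and -0.11 with total counts, and AGLU2 with the Mrjp genes was -0.27 with total counts. With 1 library left out, Hbg2 ran from -0.34 to 0.185 with Hbg3, from -0.23 to 0.10 with AGLU2 and from -0.12 to 0.41 with the Mrjp genes.

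For 250 ng/bee against the control DESeq2 called 54 genes, limma-voom 390 and edgeR 0 to 248 with 1 library left out, 248 of them without replicate 1 and 2 without replicate 3 at 250 ng/bee. In the joint test DESeq2 called 17. Transcripts called in limma with 1 library left out were 0 to 3 at 25 ng/bee, 0 to 2 at 250 ng/bee and 0 to 3 between the doses.

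With the replicate number as a block, edgeR called 0 genes in each comparison, and the log2 fold changes of Hbg3, AGLU2 and Hbg2 were -0.74, -0.32 and 0.82 at 250 ng/bee and -0.28, -0.24 and 0.12 at 25 ng/bee. The blocked 95% interval of AGLU2 at 250 ng/bee was -0.63 to -0.0156 (unadjusted p = 0.0409, adjusted 0.335 in edgeR), which excludes 0. In that blocked comparison 1319 of 9560 genes had an unadjusted p under 0.05. Same-numbered libraries deviated together with r over 0.1 in 4 of 15 pairs (median 0.0482), and libraries of other numbers in 6 of 60 (median -0.0180). The median was higher for same-numbered pairs, so these values cannot show that pairing was absent. The labels do not say what the numbers mark, and the main fit used no block. Depth limits Hbg2 most, with 6 counts in its lowest library.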
